A study of Rattus norvegicus with 16 samples.

Results

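The comparison between cross-fostered and undisturbed pups that received no contaminant rested on 8 of the 16 liver arrays of the study. The 8 arrays were chosen by their sample titles, 4 labelled cross-fostered control (CC) and 4 labelled control (C), and all 8 lay on 1 microarray slide. CC pups were male Sprague Dawley rats whose litter was adopted at birth, with corn oil exposure both in utero and through nursing. C pups were male Sprague Dawley rats whose dams received corn oil and who stayed undisturbed with their own mother. Both groups were 21 days old, the mixture dose was 0 mg/kg/day in each, and each group was 8 pups, pooled at random in pairs into 4 RNA pools with 1 array each. The other 2 groups, MM and M, were cross-fostered and undisturbed pups of dams given 1 mg/kg/day of a contaminant mixture made up of methyl mercury, PCBs and organochlorine pesticides, also in corn oil, again 4 arrays each at 21 days. The labels do not tie pups to litters, and CC pups differ from C pups in their rearing dam as well as in having been moved, which cannot be told apart here. Pups that share a litter would make the pools less independent than n = 4 implies.

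Each array carried liver RNA in the red dye (Cy5) against a universal rat reference RNA in the green dye (Cy3), so every value below is a log2 ratio of liver over reference unless a single dye is named, and a difference is CC minus C. Liver at this age is passing from a milk diet to solid food, and its transcripts for glucose use, lipid synthesis, bile acid synthesis and drug metabolism are changing. Adoption and handling in the first days of life are known in rats to alter maternal care and the glucocorticoid axis. Glucocorticoids act on the liver through a nuclear receptor whose targets include the enzyme tyrosine aminotransferase (Tat), the receptor cochaperone Fkbp5 and Tsc22d3.

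No gene differed between CC and C livers after adjustment. Of 12072 genes and transcript identifiers tested with limma, 0 had an adjusted p under 0.05 (percent called 0), and the smallest adjusted p was 1. At an unadjusted p under 0.05 there were 337 (2.79%), 194 of them higher and 143 lower in CC livers, and 266 (2.2%) had CC arrays that did not overlap the C arrays, 146 (1.21%) with CC higher and 120 (0.994%) with CC lower. The median standard error of a difference was 0.103, and for 98.7% of the genes the 95% interval of the difference lay within 2-fold in both directions, for 94.2% within 1.5-fold. Over all 12072, 6477 differences (53.7%) were above 0 and 5595 below, the background for counts of list members above or below 0. Members of a list can move together on an array, so such counts are no test. In data simulated with the spread of each gene on these arrays, 35 of 50 genes changed by 0.5 (log2) were called in CC minus C. Of those changed by 1, 50 of 50 were called, with 9 false calls over 12072 genes in that simulation. The noise was drawn independently for each gene and array, and a change was equal on all 4 CC arrays. Arrays that stand apart and shared litters were not simulated, so these shares cannot be carried over to the real arrays. Every gene named below that entered the test had an adjusted p of 1 in limma. Ckm, Prss1, Amy2a3 and Ucp1 did not pass the filter on dim probes and have no test. The words higher and lower give the order of the measured means. Genes are described by their values on each array, the difference with its standard error (SE) and its 95% interval from the fit. The replicates are arrays CC 1 to CC 4 and C 9 to C 12, and values are given in that order.

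Before the liver genes, 3 of the 8 arrays stood apart from the rest. CC 1 and CC 2 carried transcripts of other tissues. Of 38 skeletal muscle markers with a probe, 31 were over 2-fold higher on both CC 1 and CC 2 than on every other array of the slide. Their mean log2 ratio was 2.46 on CC 1 and 2.41 on CC 2, against -0.53 and -0.51 on CC 3 and CC 4 and between -0.55 and -0.48 on the 4 C arrays. Ckm, the muscle creatine kinase, stood at 4.78, 4.83, -0.27 and -0.20 on CC 1 to CC 4, against -0.14, -0.38, -0.30 and -0.39 on C 9 to C 12. It was well above background on 2 of 4 CC arrays and on 0 of 4 C arrays. In the red liver dye, normalized together with the green, its CC mean log2 signal was 9.04, against 6.33 in C livers, at least 6.29-fold higher. Myoglobin (Mb), the oxygen store of muscle, was at 4.55, 4.64, 0.04 and -0.03 in CC livers, against 0.33, 0.15, -0.04 and 0.03 in C livers.

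Digestive enzymes of the exocrine pancreas were high on the same pair of arrays. Of 24 pancreas markers with a probe, 11 were over 2-fold higher on both CC 1 and CC 2 than on the other 6, and the list averaged 1.93, 2.86, 0.41 and 0.27 in CC livers, against 0.14 to 0.31 in C livers. Trypsinogen (Prss1) stood at 4.82, 6.19, 0.40 and -0.06 in CC livers, against 0.26, 0.11, -0.06 and 0.11 in C livers, where no array was well above background. In the red dye, normalized together with the green, the CC mean was at least 5.29-fold higher, with mean log2 signals of 8.69 in CC livers and 6.08 in C livers. Prss1 was well above background on 2 of 4 CC arrays, so this fold averages unlike arrays. Pancreatic amylase (Amy2a3) was at 4.58 and 6.12 on CC 1 and CC 2 and between -0.12 and 0.35 on the other 6 arrays. On the slide with the mixture-exposed pups, the pancreas list averaged 1.51 on MM 1 and 1.03 on M 6 and at most 0.40 on its other 6 arrays. Fat markers divided differently. Ucp1, the uncoupling protein of brown fat, was at 3.46 on CC 1 and 3.19 on C 10 and between 0.06 and 0.13 on the other 6 arrays. Cox8b, a cytochrome oxidase subunit of muscle and brown fat, was at 6.48, 6.43, 0.52 and 0.49 in CC livers, against 0.26, 2.52, 0.39 and 0.20 in C livers. These marker genes were singled out after their values were seen.

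**Figure D1:**
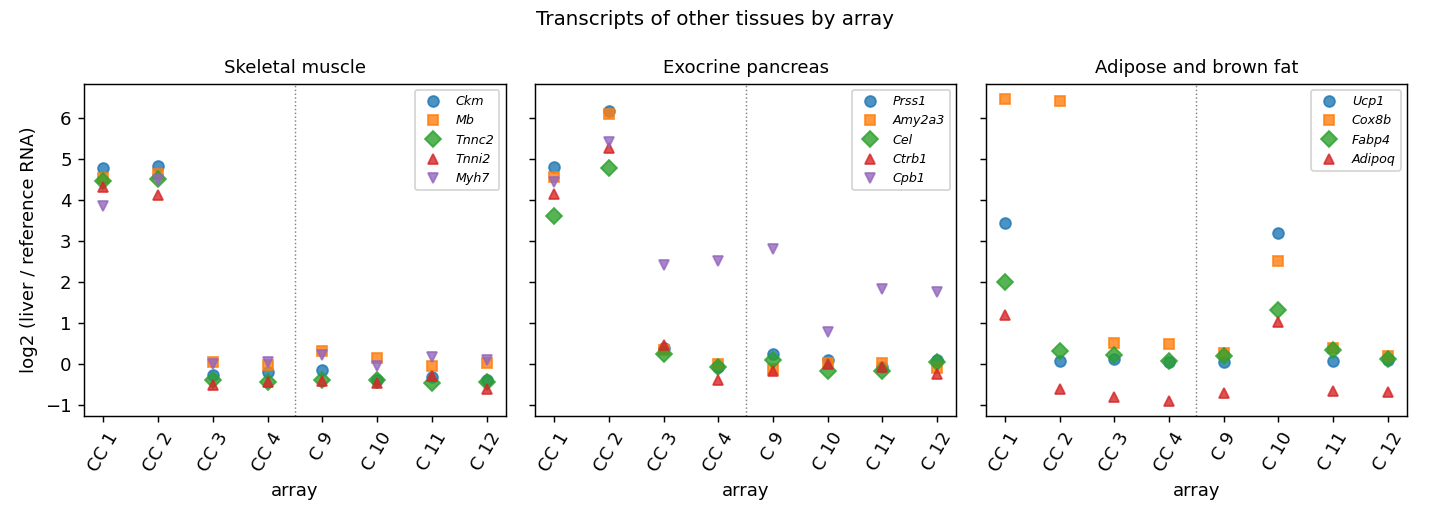
Log2 ratio (liver over reference RNA, vertical axis) of marker transcripts of skeletal muscle, exocrine pancreas and adipose tissue on each array, CC arrays left of the dotted line and C arrays right of it. Each point is 1 array. CC 1 and CC 2 lie above 3 for muscle and pancreas markers, and Ucp1 is high on CC 1 and C 10.

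The largest differences of the comparison lay with these transcripts. In whole liver, the number of cells of a type and the RNA per cell cannot be told apart. Of 19 genes with a CC mean more than 2-fold above the C mean (0.157% of those tested), 17 had CC 1 and CC 2 as their highest arrays, and 2 kept a difference over 1 when only CC 3 and CC 4 were set against C. In the other direction, 2 identifiers (0.0166%) had a CC mean more than 2-fold below the C mean. Of the 12 muscle markers that passed the filter on dim probes, 12 were higher in CC livers, with a median difference of 1.18. Of these, 9 had an unadjusted p under 0.05 in limma, where 1.61% of all genes were higher at that level. Without CC 1 and CC 2 the median difference was 0.003. These counts are no test, since the list was chosen with earlier results known. Lmod2 and Mb also met the filter in CC livers (3 of 4 arrays) and not in C livers (1 and 2 of 4 arrays). Tnnc2, fast troponin C, had 4.48, 4.52, -0.38 and -0.44 in CC livers, against -0.40, -0.38, -0.47 and -0.44 in C livers (difference 2.47 ± 0.88 SE, 95% interval 0.61 to 4.32). The groups overlap for Tnnc2, since CC 4 lies below C 10. Pfkm, the muscle form of phosphofructokinase, was named for non-overlapping groups and was highest on the same arrays, at -0.55, -0.97, -1.66 and -1.68 in CC livers, against -1.69, -1.71, -1.72 and -1.82 in C livers. Its difference was 0.52, and 0.07 without CC 1 and CC 2. Tnnt1, slow troponin T, differed by 1.87 and had no overlap either, with 4.28, 4.64, 1.59 and 1.15 in CC livers, against 1.08, 1.01, 1.02 and 1.06 in C livers. CC 1 and CC 2 lay in the first of the 2 array rows of the slide. In a fit of that row, 24 identifiers were called, 23 of them higher in CC livers and 9 from the muscle list. The differences came from the 4 CC and C arrays of the row, and the same row of the mixture slide shared in the estimate of spread. In the same kind of fit of the second row, 0 were called, and the 23 differed there by -0.81 to 0.35. CC 1 and CC 2 were the only CC arrays of the first row and had already been picked out for their muscle transcripts. The calls of that row restate those values and are no test of cross-fostering.

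CC 1 also differed in its reference dye. Its log2 ratios for the most abundant liver transcripts were low, with a mean over 20 hepatocyte markers of 5.10, against 6.38, 6.33 and 6.28 on CC 2 to CC 4 and 6.36, 6.40, 6.19 and 6.31 on C 9 to C 12. In the red dye alone that mean was 14.5 on CC 1 and 14.6 to 14.7 on the other 7 arrays. In the green dye, which holds the reference RNA, it was 10.9 on CC 1 and 9.73 to 9.86 on the other 7, and 17 of 20 markers had their highest green signal on CC 1. In the red dye alone the median CC minus C difference of the hepatocyte markers was -0.033, against -0.265 in the ratio, and 0.027 in the ratio without CC 1. Transthyretin (Ttr), the plasma carrier of thyroxine, had a green signal of 13.1 on CC 1 and 10.8 to 11.1 on the others, and its CC minus C difference was -0.03 in the red dye alone, against -0.56 in the ratio. White blood cell markers varied on CC 1. Coro1a, a coronin, was at 0.05 there and between -1.64 and -1.23 on the other 7 arrays. Cd3d and Lyz2 were also highest on CC 1, at -1.16 (others -2.66 to -2.22) and -1.92 (others -3.19 to -2.77). Clec4f and C1qa were lowest there, at 6.01 (others 6.56 to 6.79) and 5.37 (others 5.88 to 6.09). The Kupffer cell and leukocyte list averaged 1.16 on CC 1 and 0.78 to 1.06 on the others. The lymphocyte markers Cd2, Lck and Cd4 were not well above background on any of the 8.

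The third array was C 9, whose sterol genes were low. The cholesterol synthesis list averaged 1.29 to 1.71 on the CC arrays, against -0.05 on C 9 and 1.84, 1.84 and 1.26 on C 10 to C 12, and 25 of its 27 members had their lowest value of the 8 arrays there. Fdps, farnesyl diphosphate synthase, was at 1.96, 1.64, 1.34 and 1.37 in CC livers, against -1.02, 1.92, 1.84 and 1.17 in C livers. The list was higher in CC livers for 25 of 27 members with a median of 0.307, with 0 of 27 under an unadjusted p of 0.05. Without C 9 the median was -0.171, and 23 of 27 members were lower in CC livers.

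**Figure D2:**
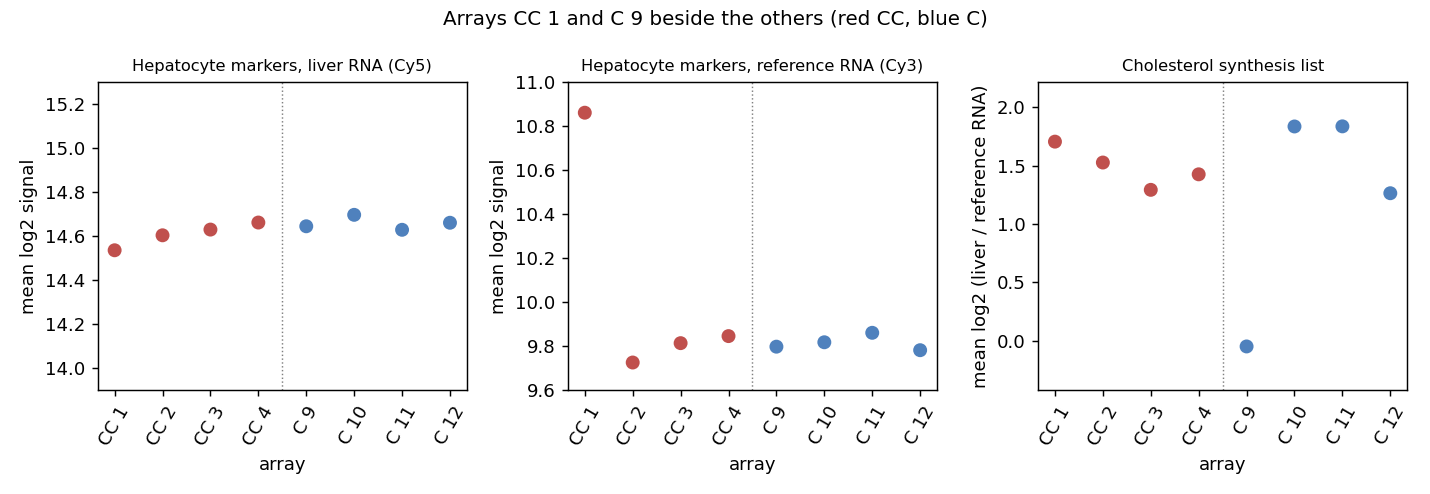
Mean log2 signal of the hepatocyte markers in the liver dye (left) and in the reference dye (middle), on vertical axes of equal span, and mean log2 ratio of the cholesterol synthesis list (right), for each CC array (red) and C array (blue). The reference dye is high on CC 1 and the sterol list is low on C 9.

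Among the genes lower in CC livers, the smallest p belonged to Irf1, a transcription factor induced by interferon gamma. Irf1 had log2 ratios of -0.01, 0.13, 0.39 and 0.25 in CC livers, against 0.57, 0.67, 1.02 and 0.65 in C livers. Every CC array lay below every C array. The difference was -0.53 ± 0.13 (SE, 95% interval -0.80 to -0.27), with -0.56 in the first array row, -0.51 in the second, and -0.41 without CC 1 and CC 2. In MM minus M livers it was -0.08.

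Other interferon-induced genes were lower in part. Ifgga2l1, annotated by name as an interferon gamma inducible GTPase, had 0.79, 0.20, 0.47 and 0.93 in CC livers, against 1.46, 1.44, 1.72 and 1.16 in C livers. Its groups did not overlap, with a difference of -0.85 ± 0.29 (SE, 95% interval -1.47 to -0.22). Igtp, an immunity-related GTPase, had -0.07, 0.08, 0.20 and 0.32 in CC livers, against 0.57, 0.29, 0.80 and 0.14 in C livers, which overlap. Its difference was -0.32 (95% interval -0.60 to -0.04), with -0.19 in the red dye alone and -0.25 without CC 1. A second Igtp probe gave -0.63. The green signal of Igtp was 13.5 on CC 1 and 12.7 to 12.9 on the other arrays of the slide. Irf9, a transcription factor of the interferon response, differed by -0.27 and Irgm, another immunity-related GTPase, by -0.33. Of 26 interferon response genes tested, 20 were below 0 and 3 of them had an unadjusted p under 0.05 (1.18% of all genes were lower at that level), with a median of -0.119 against 0.009 over all genes. The list median was -0.022 within the second array row and 0.004 without CC 1, CC 2 and C 9.

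Promoters of genes induced by interferon gamma often hold a palindrome called the gamma-activated site. The promoters of Irf1, Igtp and Ifgga2l1 are shown because these genes were lower in CC livers and each holds that motif, searched as TTCNNNGAA on both strands, where it reads the same. They were picked after their values were seen. The sequences are from RefSeq on build GRCr8, 300 bases that span each gene start, on the strand of the gene, with the motif in capitals.
Irf1, chr10:38417685-38417984, plus strand: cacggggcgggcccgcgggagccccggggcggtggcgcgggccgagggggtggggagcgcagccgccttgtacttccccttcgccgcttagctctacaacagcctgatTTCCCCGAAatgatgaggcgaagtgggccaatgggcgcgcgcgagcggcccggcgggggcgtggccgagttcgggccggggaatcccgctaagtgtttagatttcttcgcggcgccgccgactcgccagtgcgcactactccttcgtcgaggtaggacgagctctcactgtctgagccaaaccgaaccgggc
Igtp, chr10:42874797-42875096, plus strand: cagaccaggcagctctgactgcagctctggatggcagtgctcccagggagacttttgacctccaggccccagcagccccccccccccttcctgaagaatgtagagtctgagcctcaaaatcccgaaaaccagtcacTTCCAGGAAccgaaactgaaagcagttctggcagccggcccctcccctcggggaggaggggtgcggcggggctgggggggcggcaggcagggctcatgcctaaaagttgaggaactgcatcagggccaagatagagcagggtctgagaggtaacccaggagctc
Ifgga2l1, chr18:56031657-56031956, plus strand: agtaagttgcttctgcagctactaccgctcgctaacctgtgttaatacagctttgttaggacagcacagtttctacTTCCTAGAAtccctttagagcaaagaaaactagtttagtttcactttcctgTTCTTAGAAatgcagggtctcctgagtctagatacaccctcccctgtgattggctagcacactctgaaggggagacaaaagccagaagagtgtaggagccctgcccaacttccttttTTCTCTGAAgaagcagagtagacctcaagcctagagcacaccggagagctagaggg
The motif was found 1 time in the Irf1 and Igtp promoters and 3 times in that of Ifgga2l1. It occurred in 2970 of 33469 promoters (8.87%), in 7.44% of those of tested genes and in 10 of the 22 interferon response genes with a promoter sequence. A match describes the letters and not binding.

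The other genes named for lower CC values had varied roles. Dusp6, a phosphatase that inactivates ERK kinases, had -0.91, -0.88, -0.96 and -1.25 in CC livers, against -0.16, -0.42, -0.82 and -0.25 in C livers. Its groups did not overlap, with C 11 closest to the CC arrays. The difference was -0.59 ± 0.17 (SE, 95% interval -0.95 to -0.23), with -0.61 and -0.57 within the first and second array rows. Chka, the choline kinase that begins phosphatidylcholine synthesis, had 1.06, 1.05, 1.02 and 1.03 in CC livers, against 1.36, 1.83, 1.45 and 1.34 in C livers, a narrow CC group below a spread C group (difference -0.46). Man1a2, a Golgi mannosidase, differed by -0.32, Ptprf, a receptor tyrosine phosphatase, by -0.36, and Aifm2, an oxidoreductase that limits lipid peroxidation, by -0.28, with -0.04 for a second Aifm2 probe. Banp, Arhgap28, Ing1, Pdlim5 and Ttc17 completed the 12, with differences between -0.46 and -0.17. Banp was well above background on 1 of 4 CC arrays and 4 of 4 C arrays. Ing1 was dim in both groups, well above background on 1 of 4 arrays in each.

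Metabolic genes and lists were measured next. Pck1, the rate-limiting enzyme of gluconeogenesis, differed by 0.19 with a 95% interval of -0.40 to 0.78. Fasn, fatty acid synthase, differed by 0.28 with C 9 at -1.75, and by -0.08 without CC 1 and CC 2. The gluconeogenesis and glycolysis list had a median of -0.019 over 26 genes and the fatty acid oxidation list -0.039 over 33, and scaling the arrays to an equal spread gave 0.148 and 0.351 in that order. Cps1, the first enzyme of the urea cycle, had 3.10, 3.30, 3.34 and 3.24 in CC livers, against 3.46, 3.63, 3.55 and 3.35 in C livers, a separation of -0.25 with no overlap. When the arrays were scaled to an equal spread, the Cps1 difference was 0.26, the opposite sign.

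**Figure D3:**
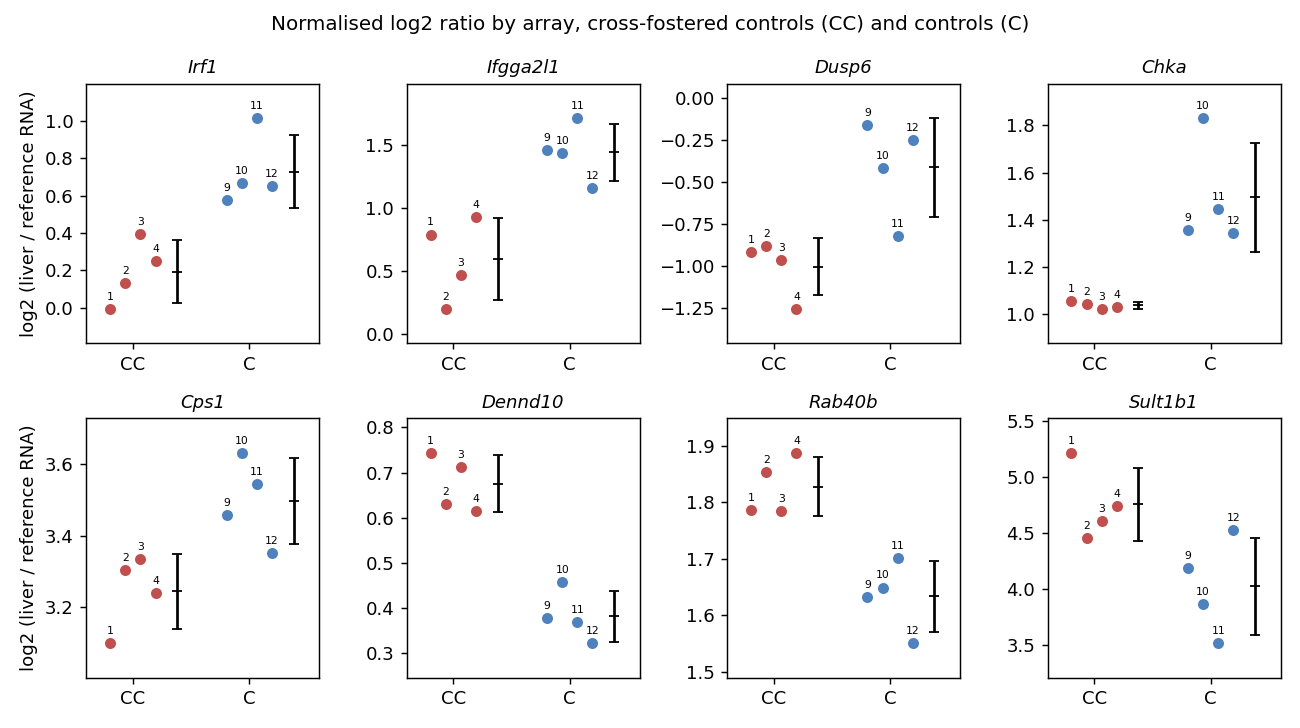
Log2 ratio (liver over reference RNA, vertical axis) of 8 genes in the 4 CC arrays (red) and 4 C arrays (blue), numbered by replicate, with the mean and SD of each group as a black bar. Irf1, Ifgga2l1, Dusp6, Chka and Cps1 lie lower in CC and Dennd10 and Rab40b higher without overlap, while Sult1b1 overlaps.

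Several genes were higher in CC livers. Dennd10, a regulator of Rab GTPases, had 0.74, 0.63, 0.71 and 0.61 in CC livers, against 0.38, 0.46, 0.37 and 0.32 in C livers (difference 0.29 ± 0.09 SE, 95% interval 0.10 to 0.49). The groups did not overlap, and the difference was 0.28 without CC 1 and CC 2. Rab40b, a Rab GTPase that joins a ubiquitin ligase, had 1.79, 1.85, 1.78 and 1.89 in CC livers, against 1.63, 1.65, 1.70 and 1.55 in C livers. Its difference was 0.19, and 0.23 in MM minus M livers. Of the 12 genes named for higher CC values, 6 were above 0 in MM minus M livers. Of the 12 named for lower CC values, 5 were below 0 there. Fzd1, a Wnt receptor, differed by 0.31 and Mis18a, which helps load the centromere histone, by 0.36. Cfl2, the cofilin of muscle, differed by 0.31, with 1 of 4 C arrays well above background. Acss1, the mitochondrial acetyl-CoA synthetase, differed by 0.44, and by 0.21 without CC 1 and CC 2. Anapc2, a subunit of the anaphase-promoting complex, differed by 0.24, Dpcd by 0.27 and Dynlt1, a dynein light chain, by 0.21, which was 0.13 without CC 1 and -0.06 with the arrays scaled to an equal spread. Tm2d1 was not well above background on any C array and gets no fold.

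Sult1b1, a sulfotransferase that acts on thyroid hormones and phenols, had 5.22, 4.46, 4.60 and 4.74 in CC livers, against 4.19, 3.87, 3.52 and 4.52 in C livers. The groups overlap at C 12. The difference was 0.73 ± 0.25 (SE, 95% interval 0.20 to 1.26), and a second probe gave 0.81. Of 27 genes of cell division tested, 26 were above 0, where 53.7% of all genes were. Their median was 0.177, and 0.178 without CC 1 and CC 2, 0.119 without CC 1 alone, but -0.071 when the arrays were scaled to an equal spread. Birc5, survivin of the chromosomal passenger complex, differed by 0.28 and Plk1, a mitotic kinase, by 0.20, and these were the only 2 of the 27 with an unadjusted p under 0.05, where 1.61% of all genes were higher at that level. The list mean was -1.16, -1.53, -1.31 and -1.28 in CC livers, against -1.54, -1.61, -1.39 and -1.39 in C livers, and CC 2 lay among the C arrays.

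Of 25 glucocorticoid targets tested, 14 were above 0 and 11 below. The median was 0.012, or 0.249 when the arrays were scaled to an equal spread, and 0 had an unadjusted p under 0.05. Fkbp5 had -0.07, 0.30, 0.47 and 0.29 in CC livers, against -0.06, 0.67, 0.11 and 0.10 in C livers, a difference of 0.04 with a 95% interval of -0.48 to 0.56. Tsc22d3 differed by -0.17 (interval -0.58 to 0.24) and Tat by 0.10 (interval -0.45 to 0.65). Igfbp1, a binding protein that glucocorticoids and fasting induce, differed by -0.43 with an interval of -1.11 to 0.25. A p that misses the threshold does not show equal levels.

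Among hormone, clock and detoxification genes, few groups separated. Igf1, the growth factor that growth hormone induces in liver, differed by -0.17, and by -0.03 without CC 1 and CC 2. Igfals, the subunit that holds Igf1 in the circulation, differed by -0.27 and by -0.24 without them. Dbp, a clock output factor, had -0.43, -1.02, -0.79 and -1.06 in CC livers, against -1.27, -1.33, -1.50 and -1.22 in C livers. All CC values lay above all C values (difference 0.51, 95% interval -0.04 to 1.05), and MM minus M was 0.61. Nr1d1, a repressor of the clock, differed by 0.28 with overlapping groups, and was well above background on only 1 of 4 C arrays. Its difference was 0.17 in the red dye alone and 0.80 on the scanner's own log ratios. Cyp2c7, a drug-metabolising enzyme, differed by -0.65 (95% interval -1.22 to -0.08), with C 10 at 2.61 among the CC values. Cyp2b2, a target of the receptor CAR, differed by 0.42 and Cyp1a1, the marker target of the aryl hydrocarbon receptor, by 0.08.

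Akr1d1, a reductase of bile acid synthesis, differed by 0.41, Hsd3b7 of the same pathway by 0.31 and Slco1a1, an organic anion carrier, by 0.30, the 3 of 21 bile acid genes with an unadjusted p under 0.05, where 1.61% of all genes were higher at that level. Without CC 1 the Akr1d1 difference was 0.26 and that of Slco1a1 0.16, and the scanner's own log ratios gave -0.24 for Slco1a1. The median of the list was 0.011, or 0.601 when the arrays were scaled to an equal spread, and Cyp7a1, its rate-limiting enzyme, differed by 0.22, or -0.09 without CC 1 and CC 2. Afp, the fetal albumin, differed by 0.21 with CC 1 at 7.83, and by 0.43 without CC 1 and CC 2. The acute phase list was below 0 for 30 of 32 genes with a median of -0.248, and -0.035 without CC 1 alone, -0.128 in the red dye alone, and 0.718 when the arrays were scaled to an equal spread.

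The remaining pathway lists had medians between -0.107 and 0.193. The growth hormone and IGF list was at -0.107 over 18 genes, the periportal amino acid and urea cycle list at -0.093 over 30 and the xenobiotic receptor targets at -0.064 over 27. The heat shock and unfolded protein list was at -0.048 over 27, epigenetic enzymes at -0.031 over 15 and the thyroid hormone list at -0.019 over 11. The clock list stood at -0.018 over 12 genes and immediate early genes at -0.018 over 15. Above 0 were Nrf2 antioxidant targets (0.025 over 26), ribosomal proteins (0.04 over 28), ketone body genes (0.057 over 7), fatty acid and triglyceride synthesis (0.109 over 19) and immature liver genes (0.193 over 11). Without C 9 the fatty acid synthesis median was 0.02, and without CC 1 that of immature liver genes was 0.112. Scaling the arrays to an equal spread turned the sign of the growth hormone (0.041), periportal (0.5), xenobiotic (0.527), heat shock (0.003), thyroid (0.266), clock (0.048) and ribosomal (-0.031) lists. Markers of Kupffer cells and leukocytes had a median of 0.038 over 29 genes and those of endothelial and stellate cells 0.103 over 21, or 0.023 without CC 1. The hepatocyte markers were at -0.265 with 17 of 20 below 0, and without CC 1 at 0.027 with 15 of 20 above 0, while scaling the arrays gave 0.713. In each of these lists, 0 genes were called after adjustment, and at most 2 per direction had an unadjusted p under 0.05.

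**Figure D4:**
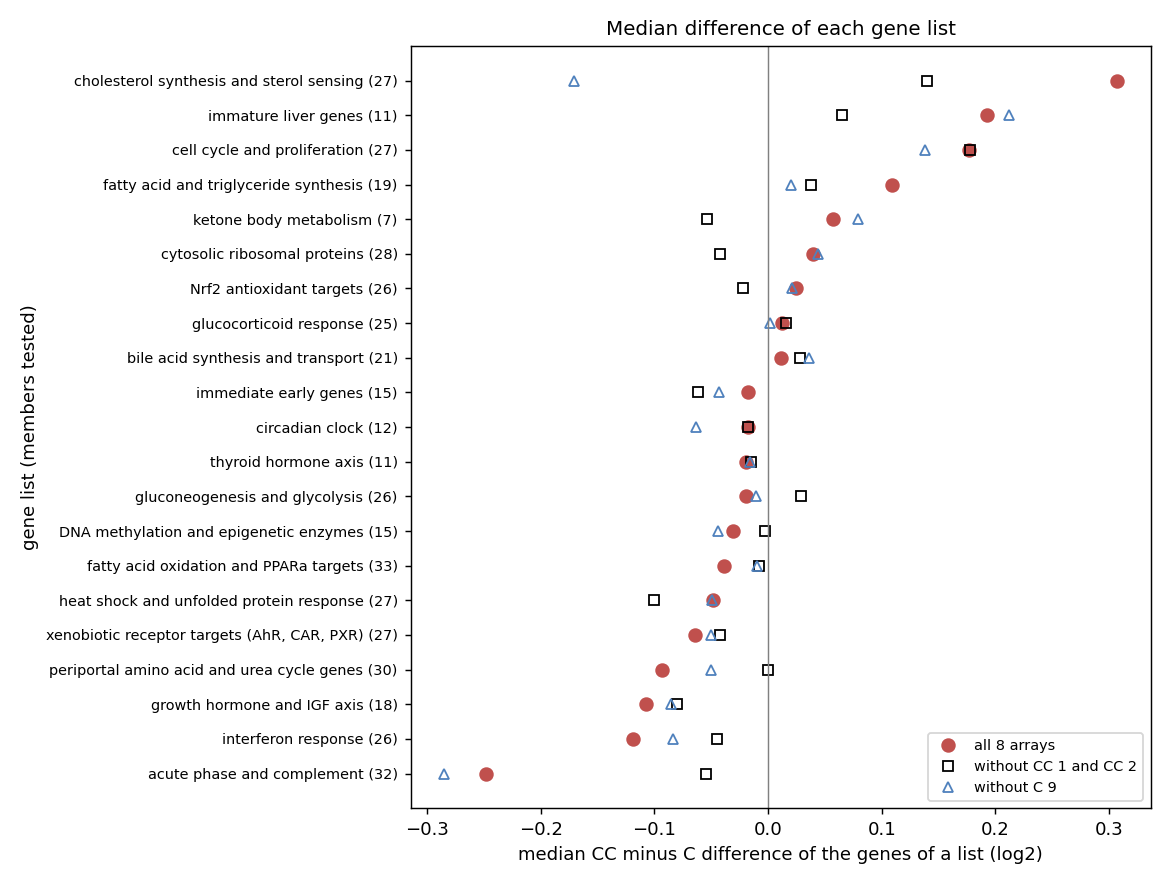
Median CC minus C difference (log2, horizontal axis) of each pathway list with its number of tested genes, over all 8 arrays (filled circles), without CC 1 and CC 2 (squares) and without C 9 (triangles). The sterol list changes sign without C 9, and the acute phase list moves toward 0 without CC 1 and CC 2.

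The effect of cross-fostering in unexposed pups was then set against that in mixture-exposed pups. The interaction had 0 of 12072 calls, with 348 at an unadjusted p under 0.05. Myo1e, an unconventional myosin, had the smallest p of the interaction (adjusted p = 1 in limma), with -0.27 in CC minus C livers and 0.46 in MM minus M livers. Pxmp4, a peroxisomal membrane protein, had 0.35 and -0.34 in that order, and Man1a2 -0.32 and 0.11. Wwc2 had -0.20 and 0.25, but a second Wwc2 probe gave 0.18 in CC minus C livers. Across all 12072 genes, which are not independent, the differences of both comparisons had a Pearson correlation of -0.0643, and the comparisons share no array.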

How the data were processed

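Liver RNA pools of 2 pups were hybridised in Cy5 against a common Cy3 reference, with no dye swap. The authors deposited Agilent Feature Extraction 11.0.1.1 output with median intensity per spot and a log10 ratio, and a series table of log2 ratios whose normalization is not given in the sources used here (array medians -0.049 to -0.037). Per the file headers the annotation build was rn4. Intensities were background-corrected with normexp (offset 50), loess-normalized within arrays, and averaged per probe in R 4.3.3 with limma 3.58.1. Probes whose Cy5 was well above background on 3 of 4 arrays of a group were kept (13262), and the brightest per gene used (12072, of which 7895 have a symbol). Group means were fitted over 16 arrays, with Benjamini-Hochberg adjustment over all genes. The test was checked on simulated data. Genes were named by smallest p with non-overlapping groups, up to 12 per direction, plus list members and 17 set genes. The comparison and gene lists were chosen with earlier results of these data known. The number of arrays limits the precision. Bounds (at least N-fold) compare mean normalized log2 Cy5 signals with the higher of the dim probe and the lowest well-above-background probe, and are open to dye bias. These signals were normalized together with Cy3, unlike the values given for the red dye alone. Some results are not reported here.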

Additional observations from a re-analysis of the deposited data

Results flagged for a closer look

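An array far from the other 3 of its group was looked for in each gene named and each list mean, and 22 of 246 groups had one (8.94%). Chance gives about 1 in 20 for independent groups picked without their values. Some genes here were named after their values were seen, and some lists hold the same genes, so the share cannot be set against that rate. Of the 22, 16 were on CC 1. Low on CC 1 were Man1a2 (0.345, others from 0.644), Igf1 (3.454), Saa4 (6.663), Mat1a (4.733), Bhmt (5.145), Ttr (6.484), Fgb (5.901) and Tf (4.101), and high were Dynlt1 (-1.325) and Coro1a (0.051). The list means low on CC 1 were those of glucocorticoid response (1.624), gluconeogenesis and glycolysis (2.06), periportal amino acid and urea cycle genes (3.152), acute phase and complement (4.694), DNA methylation and epigenetic enzymes (0.692) and hepatocyte markers (5.104). The green reference signal of hepatocyte markers was highest on CC 1 for 17 of 20. In the red dye alone the CC minus C difference was -0.03 for Ttr, -0.22 for Fgb, 0.02 for Tf and -0.17 for Mat1a, against -0.56, -0.63, -0.48 and -0.33 in the ratio. On the other arrays, Dpcd was high on CC 3 (0.381), Banp was low (-1.068) and Gpt high (1.835) on C 9, Cyp2c7 was low (2.607) and Cox8b high (2.517) on C 10, and Lmod2 was high on C 12 (0.73).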

How the results depend on the processing

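The count of called genes was 0 under every setting tried except the fit of the first array row of both slides. That fit had 24 called and 10 list members called, 9 of them muscle markers. Its only CC arrays were CC 1 and CC 2, already picked out for their muscle transcripts. With each of the CC or C arrays left out in turn, the count stayed at 0 for the comparison, for the lists and for the interaction, and the unadjusted count ran from 196 without CC 1 to 410 without CC 3. The unadjusted count was 513 with array row as a block, 738 on the scanner's own log ratios, 501 with array weights, 160 after scaling between arrays and 1035 of 26913 with no filter on dim probes. The 24 genes named for non-overlap gave 591 values over 25 settings, since some did not pass the stricter filter, with 1 sign change, Dynlt1 after scaling between arrays. Their choice fixes the sign where arrays are left out or rows split, so this is no sign of stability. The green dye alone gave 0 calls, in a setting chosen after seeing the data, as were those that drop CC 1, CC 2 and C 9 together or combine the row block with the loss of CC 1 and CC 2. No paired analysis was possible because CC and C pools carry different replicate numbers (1 to 4 and 9 to 12). The labels do not say which pups share a litter, so p-values measure the spread between pools.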
